A study of Mus musculus with 4 samples.

Results

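The odorant receptor genes named Olfr829 to Olfr986, without those carrying a -ps suffix, were examined in single cells of the mouse main olfactory epithelium. The name rule found 110 genes among the 1430 receptor genes and 55511 features of the deposited count table. All of them lie on chromosome 9 (GRCm38), and 576 of the 9791 mature olfactory sensory neurons (OSNs) with an assigned receptor carried 1 of them. Cells came from 4 male C57BL/6 mice (C57BL/6J in the study's methods) aged 8 weeks and kept at rest, that is, with no odorant exposure. No allele, transgene or treatment distinguished the animals, and the labels form 1 group with 1 library per mouse. The comparisons were therefore made between sets of neurons within the same mice (n = 4), and cells were never counted as replicates. Dissociated cells had been sorted for live nucleated cells, and the 3′ ends of their transcripts were counted with unique molecular identifiers (UMIs), so that amplified copies of a molecule count once.

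An odorant receptor is a G protein-coupled receptor of the sensory cilia. Each mature OSN transcribes essentially a single receptor gene from a single allele, and the neurons sharing that receptor form a population whose axons converge in the olfactory bulb. Receptor genes lie in clusters along the chromosomes and fall into class I, an ancient group, and class II, which holds most mammalian receptors. Neurons of a given receptor are confined to a zone of the epithelium: dorsal neurons express the quinone reductase gene Nqo1, and ventral neurons express nuclear factor I genes such as Nfix. All genes of the Olfr829 to Olfr986 series belong to class II.

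The receptor genes formed a proximal and a distal group on chromosome 9. The proximal group held 30 genes between positions 18854933 and 20303599, the distal group held 80 genes between 37745106 and 40190134, and 17441507 bp separated them. The annotation listed 107 of the 110 as protein coding and 3, Olfr908, Olfr915 and Olfr936, as polymorphic pseudogenes. Another 62 receptor genes lay within the same stretches outside the name rule, 39 of them with -ps names, and are not described further. The 107 open coding sequences encoded proteins of 305 to 331 residues, with a median of 312. Over all 5671 pairs, the median identity between proteins was 43.2%. It was 55.1% within the proximal group, 56.1% within the distal group and 40.4% between the groups, where the closest pair reached 49.7%. Neighbouring genes of the series were 65.7% identical at the median. Here and below, neighbours and places are counted in the order of the 110 genes alone, so other receptor genes can lie between them. Close copies were common: 20 pairs shared at least 90% of their residues, and 33 of the genes belonged to such a pair.

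Sequences of 4 receptors are given around the motif that closes the inner end of the third membrane segment, a signature of the family, because neurons of these receptors recur in the comparisons that follow. The stretches come from GRCm38, read 5′ to 3′ along the coding strand, and the capitals mark the 18 bases of the motif. Olfr984 (chr9:40101090-40101167, minus strand) and Olfr976 (chr9:39956535-39956612, minus strand) are distal, and Olfr855 (chr9:19584860-19584937, plus strand) and Olfr870 (chr9:20171171-20171248, minus strand) are proximal.
Olfr984: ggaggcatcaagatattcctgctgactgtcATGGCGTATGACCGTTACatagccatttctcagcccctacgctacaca
Olfr976: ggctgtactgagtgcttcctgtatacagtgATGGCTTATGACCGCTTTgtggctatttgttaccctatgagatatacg
Olfr855: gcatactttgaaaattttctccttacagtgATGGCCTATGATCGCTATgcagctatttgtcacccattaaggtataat
Olfr870: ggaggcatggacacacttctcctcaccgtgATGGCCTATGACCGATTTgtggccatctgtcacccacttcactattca

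A second set shows the pair Olfr969 and Olfr972, distal genes 3 places apart whose proteins were 83.1% identical and whose neurons differed in side, as described further on. Their coding sequences were 88% identical, with 103 differing bases. The 150 bases that differ most (coding bases 397 to 546) hold 24 of these, marked by capitals, and 15 differing residues. They lie at chr9:39795773-39795922 for Olfr969 and chr9:39873673-39873822 for Olfr972, both on the plus strand.
Olfr969: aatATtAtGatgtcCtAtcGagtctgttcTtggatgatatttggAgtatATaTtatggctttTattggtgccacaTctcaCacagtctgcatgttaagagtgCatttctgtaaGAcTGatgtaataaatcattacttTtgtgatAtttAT
Olfr972: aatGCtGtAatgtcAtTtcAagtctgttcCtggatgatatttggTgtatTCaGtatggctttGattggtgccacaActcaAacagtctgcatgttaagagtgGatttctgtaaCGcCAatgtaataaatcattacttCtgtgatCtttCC

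Of the 110 genes, 83 were the receptor of at least 1 mature neuron. Their neurons made up 6.43%, 5.47%, 5.86% and 5.73% of the assigned neurons in mice 1 to 4, a mean of 5.87% ± 0.41 (SD, n = 4). The 95% Wilson intervals of the 4 shares overlapped, the widest running from 4.85% to 7.05% in mouse 3, and cover counting error only. A further 17 genes had UMIs but no assigned neuron, and 10 had no UMI in any barcode. Of the 107 protein-coding genes, 77.6% had a neuron, with 5.38 neurons per gene. The corresponding values for the 902 other protein-coding class II genes were 83.9% and 8.94. These gene counts describe the 4 libraries together and were not tested.

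Populations were small and unequal in size. A median of 5 neurons was found per receptor with any, 11 receptors had a single neuron, 59 had at least 3, 19 had at least 10 and 6 had at least 20. The 10 largest held 36.3% of the 576 neurons, and 25 receptors were found in all 4 mice. Olfr984 (ENSMUSG00000045812) was the most frequent, with 3, 10, 7 and 6 neurons in mice 1 to 4, or 26 in all. Olfr976 (ENSMUSG00000047352) followed with 7, 4, 7 and 6 neurons. Both were thus seen in every animal, although Olfr984 had its fewest neurons in mouse 1 and its most in mouse 2. Olfr969 had 10, 4, 3 and 6 neurons, and Olfr972 had 7, 7, 3 and 5. Olfr884 had 4, 1, 4 and 13 neurons, so that mouse 4 supplied most of its 22. Olfr868, the largest proximal population, had 11, 1, 3 and 6 neurons, and here mouse 1 supplied most of the 21. The other large populations were Olfr843 with 19 neurons, Olfr855 and Olfr873 with 18 each, and Olfr870 and Olfr878 with 16 each. Proximal and distal genes yielded 5.83 and 5.01 neurons per gene, a difference that was not tested.

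**Figure D1:**
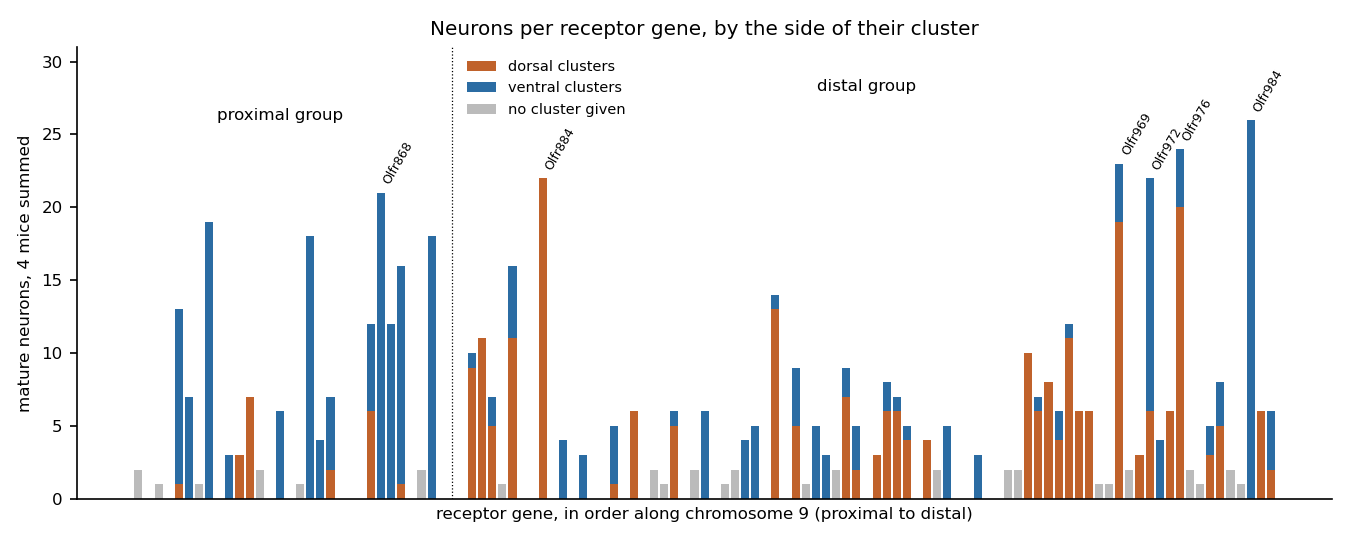
Mature neurons of each receptor gene (bars, 4 mice summed), with genes ordered along chromosome 9 and colours giving the side of the deposited neuron cluster. The proximal genes, left of the dotted line, were mostly ventral and the distal genes mixed, with Olfr984 (26 neurons) ventral and Olfr884 (22 neurons) dorsal throughout.

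Genes without an assigned neuron were mostly near silent. Of the 17 with UMIs, 14 had 1 to 13 UMIs over all barcodes. The other 3 are named here because of their counts, after these had been seen. Olfr844 had 25 UMIs, all in 1 immature neuron. Olfr905 had 35, of which 28 lay in 2 mature OSN barcodes that the authors had removed. Olfr944 had 173 UMIs in 7 cells, nearly all in immature neurons: the 6 immature cells held 85, 43, 25, 16, 2 and 1 UMIs, and the only mature neuron held 1. Several genes with few or no neurons had a near-identical partner, but so did genes with many. Of all 110 genes, 33 belonged to a pair at least 90% identical, and the pairs named next are examples only. Olfr871 had no UMI while Olfr870, 96.1% identical in protein, had 16 neurons, and Olfr885 had no neuron while Olfr884, 91.9% identical, had 22. Among the 20 pairs of at least 90% identity, 12 had neurons for both genes, 7 for 1 gene and 1 for neither. Over all protein-coding genes of the series 77.6% had a neuron. Whether genes in close pairs differ from the others in this was not tested. Counts within these pairs are uncertain, since reads common to close copies can be lost or shared out.

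The level of the chosen receptor was expressed as its UMIs per 10000 UMIs of the neuron. As 1 UMI stands for 1 molecule read at its 3′ end, these levels were not divided by gene length, but they depend on how completely each 3′ end is annotated. The mouse medians in neurons of the chromosome 9 receptors were 85.2, 90.8, 80.6 and 82.0, and in neurons of the other class II receptors 78.0, 81.3, 78.4 and 79.7. The former exceeded the latter in 4 of 4 mice, with means of 84.7 ± 4.5 and 79.4 ± 1.5 (SD, n = 4), and the exact sign-flip permutation test over mice gave p = 0.13, the smallest that 4 mice allow. In UMIs per neuron without scaling, the order of the means was the other way, at 36.6 ± 6.9 against 38.5 ± 8.2. The higher level did not hold for the distal receptors, which had 401 of the 576 neurons. Their mean was 68.6 ± 4.3, below that of the other class II receptors, and the ranges over mice did not overlap. Within the series the levels spanned a wide range. Among the 19 receptors with at least 10 neurons, Olfr870 was highest, with 280, 222, 160 and 205 UMIs per 10000 in mice 1 to 4 (217 ± 50). Olfr976 was lowest, with 34.3, 30.5, 35.1 and 25.0 (31.2 ± 4.6). The mouse medians of these 2 receptors did not overlap, but single neurons did, running from 10.4 to 456 for Olfr870 and from 12.0 to 41.3 for Olfr976. Next to Olfr870 stood Olfr868 at 183 ± 20, Olfr969 at 165 ± 53, Olfr855 at 161 ± 26 and Olfr869 at 159 ± 31. Next to Olfr976 stood Olfr984 at 36.3 ± 10.2, Olfr961 at 38.8 ± 9.3 and Olfr835 at 44.9 ± 17.4. In the order of the 19, neighbours differed by more than the larger of their SDs at only 2 places, between Olfr972 (105.2 ± 27.5) and Olfr843 (74.3 ± 15.8) and between Olfr874 (72.2 ± 4.0) and Olfr884 (53.5 ± 4.9). Higher and lower levels occurred among smaller populations, chosen here after their values were seen: Olfr959 reached 340 ± 101.9 (8 neurons, 4 mice) and Olfr981 280 ± 37 (8 neurons, 3 mice), while Olfr975 stood at 19.2 ± 4.0 and Olfr907 at 28.4 ± 5.2 (6 neurons and 3 mice each).

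**Figure D2:**
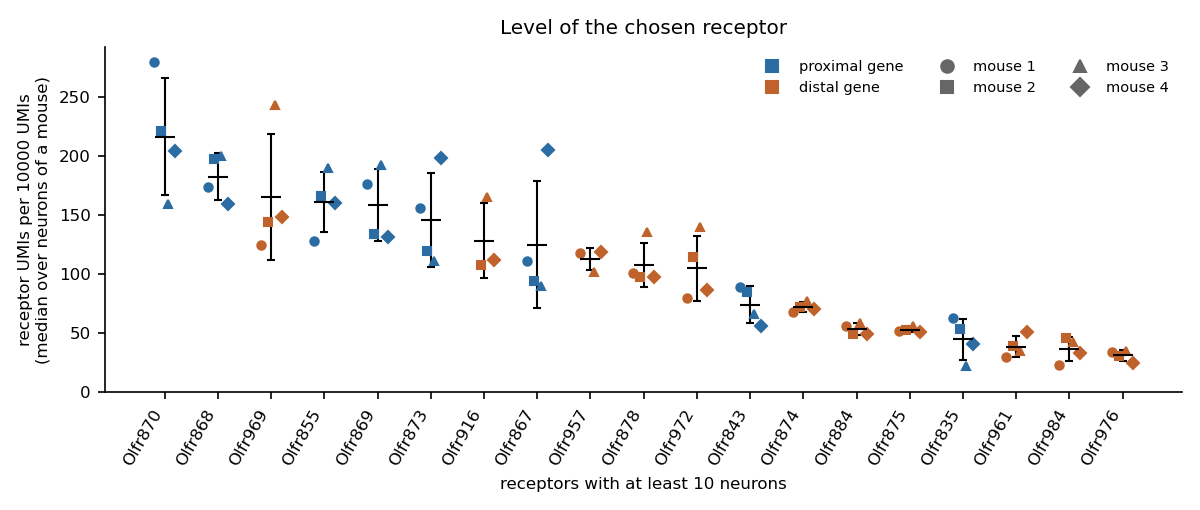
Receptor UMIs per 10000 UMIs of the neuron for the 19 receptors with at least 10 neurons, in descending order; points are medians of 1 mouse, horizontal bars the mean and error bars the SD over mice. Levels ran from 217 for Olfr870 to 31.2 for Olfr976, with most of the higher positions taken by proximal genes (blue).

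Proximal receptors were more abundant in their neurons than distal ones. The proximal medians were 125, 115, 108 and 127 UMIs per 10000 in mice 1 to 4, and the distal medians 72.8, 63.7, 66.4 and 71.5, so that the ranges did not overlap. The means were 119 ± 9.1 and 68.6 ± 4.3, and the difference of 50.3 ± 6.2 had the same sign in 4 of 4 mice (exact sign-flip permutation p = 0.13, the smallest possible). Counting each population once gave 107 ± 13 against 75.2 ± 2.9, again in 4 of 4 mice. In neurons of ventral clusters alone, the values were 129 ± 9.5 for 146 proximal neurons and 70.0 ± 12.5 for 132 distal neurons (4 of 4 mice, exact p = 0.13). In dorsal clusters the order was not the same, as 20 proximal neurons had 60.8 ± 17.3 and 241 distal neurons 72.2 ± 5.2, lower for proximal in 3 of 4 mice (exact p = 0.25). The total UMIs per neuron were 5053 ± 1281 and 4644 ± 1123 (exact p = 0.375).

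Promoter windows from RefSeq (GRCm38.p6, 250 bases before to 50 after the start) were matched for 93 of the 110 genes, giving 94 windows. In 62 of the 94, as in 685 of 944 windows of all receptor genes, the listed start is the ATG itself, so only the other 32 windows were read. The letters TAATTA, a core of homeodomain sites, were present in 7 of 11 proximal and 1 of 21 distal windows. The share was 17.6% of the 227 such windows of other receptor genes and 5.29% of all 32851 windows. Among windows starting within 100 bases of the GENCODE start, ATG starts included, 5 of 7 proximal and 1 of 13 distal windows held them. The letters CCCNNGGG, the core of Olf-1/Ebf sites, were present in 1 of the 32 windows, against 8.37% of the 227 windows of other receptor genes and 13.7% of all windows. Both motifs read the same on either strand and do not overlap each other. A match says only that the letters are in the window.

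Of the windows, 2 are shown as examples with and without TAATTA, from a proximal and a distal gene. The windows of the proximal Olfr855 and Olfr843 hold none. Olfr868 (chr9:20098376-20098675, plus strand) holds TAATTA, in capitals, and Olfr976 (chr9:39960995-39961294, minus strand) holds neither motif.
Olfr868: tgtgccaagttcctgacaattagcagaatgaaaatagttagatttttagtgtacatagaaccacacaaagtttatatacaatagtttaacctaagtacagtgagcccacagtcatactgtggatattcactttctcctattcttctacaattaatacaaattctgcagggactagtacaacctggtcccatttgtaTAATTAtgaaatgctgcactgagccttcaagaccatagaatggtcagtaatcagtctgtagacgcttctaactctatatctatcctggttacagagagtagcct
Olfr976: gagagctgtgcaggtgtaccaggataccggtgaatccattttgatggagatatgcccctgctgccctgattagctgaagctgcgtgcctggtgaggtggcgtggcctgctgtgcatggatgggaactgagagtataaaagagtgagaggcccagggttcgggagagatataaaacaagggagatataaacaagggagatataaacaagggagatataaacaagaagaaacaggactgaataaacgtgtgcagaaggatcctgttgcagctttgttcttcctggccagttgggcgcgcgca

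The deposited clusters of mature OSNs, built without receptor counts, carry dorsal or ventral labels, and the side of a receptor was taken from them. Shares are of neurons with a deposited cluster, which 539 of the 576 neurons of chromosome 9 receptors had, or 162, 123, 99 and 155 in mice 1 to 4. Of these, 48.8%, 37.4%, 58.6% and 50.3% lay in dorsal clusters. The shares for other class II receptors were 19.4%, 16.9%, 21.2% and 17.7%. The 2 sets did not overlap, with means of 48.8% ± 8.7 and 18.8% ± 1.9 and a difference of 30 ± 7.1 percentage points in 4 of 4 mice (exact sign-flip permutation p = 0.13, the smallest possible). For class I neurons, a mostly dorsal set, the share was 92.0% ± 2.2. The dorsal neurons came mostly from the distal group. Proximal receptors were 6.52%, 11.6%, 13.6% and 16.4% dorsal, and distal receptors 65.5%, 51.3%, 71.4% and 69.0%. The means of 12.0% ± 4.2 and 64.3% ± 9.0 differed by 52.3 ± 8.9 percentage points in 4 of 4 mice (exact p = 0.13). With each population counted once they were 16.8% ± 7.2 and 61.9% ± 5.6. Without Olfr984, the largest distal population, the distal mean was 69.5% ± 8.6.

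**Figure D3:**
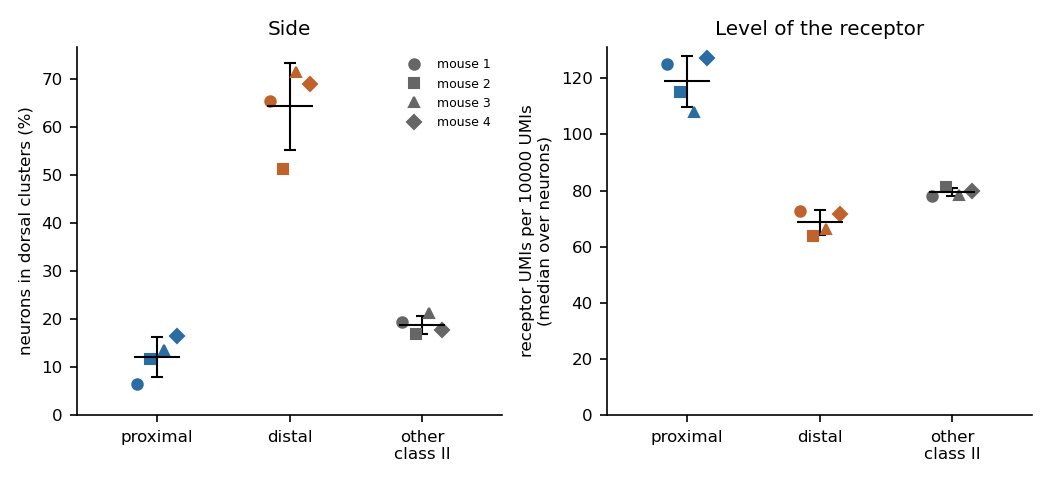
Left, percent of neurons in dorsal clusters and, right, median receptor UMIs per 10000 UMIs, for neurons of proximal, distal and other class II receptors; points are mice, with the mean and SD (n = 4). Proximal receptors were 12.0% dorsal at a level of 119 and distal receptors 64.3% dorsal at 68.6, with no overlap between these 2 sets in either panel.

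Side also differed between populations of the same group. Of the populations with at least 3 clustered neurons, 2 of 15 proximal ones were mostly dorsal, 12 mostly ventral and 1, Olfr867, even. Of 44 distal ones, 29 were mostly dorsal and 15 mostly ventral. Among 637 other class II populations 151 were mostly dorsal, or 23.7%. Olfr984 was ventral in 26 of 26 neurons, in the cluster named Ventral, while Olfr976 was dorsal in 20 of 24. Olfr884, Olfr875 and Olfr957 lay wholly in the dorsal Calb2+ cluster, with 22, 11 and 10 neurons. Olfr855 lay wholly in the ventral Cd55+ cluster, with 18 neurons, as did 14 of the 16 neurons of Olfr870 and 10 of the 13 of Olfr835. Olfr869 and Olfr873 lay wholly in the cluster named Ventral. The near neighbours Olfr969 and Olfr972 were split, with 19 of 23 neurons dorsal for the former and 16 of 22 in the ventral Calb2+ cluster for the latter. Olfr867 was spread over 4 clusters, with 6 dorsal and 6 ventral neurons.

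The share of each subset also differed between the groups. The ventral Cd55+ cluster held 32.6%, 27.9%, 31.8% and 21.8% of proximal neurons in mice 1 to 4, against 0.54% ± 0.65 of distal and 3.98% ± 0.81 of other class II neurons. The dorsal Calb2+ cluster held 16.3% ± 4.9 of distal and 2.70% ± 2.21 of proximal neurons. No neuron of a chromosome 9 receptor lay in either cluster named for Cd36, which held 6.54% ± 1.03 (ventral) and 1.04% ± 0.27 (dorsal) of other class II neurons.

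Expression of the other genes was compared between neurons of these receptors and of the remaining class II receptors, to ask how far receptor identity goes with a wider profile. UMIs were summed per mouse and set, receptor genes were left out, and edgeR's quasi-likelihood test with mouse as a block and Benjamini-Hochberg adjustment was used. Levels are UMIs per 10000, and changes are log2 fold changes ± SE. Neurons of the chromosome 9 receptors, as 1 set, had more of the dorsal genes and less of several ventral and subset genes. The higher level of the dorsal genes Nqo1 and Acsm4 did not hold for the proximal receptors, as given below. Nqo1 measured 10.6, 12.5, 12.2 and 9.65 in mice 1 to 4, against 4.38, 4.89, 5.67 and 3.5 in the other neurons, a change of 1.29 ± 0.045 (adjusted p = 2.52e-73). Acsm4, a medium-chain acyl-CoA synthetase gene of the dorsal zone, stood at 2.74 ± 0.54 against 1.02 ± 0.20 (1.43 ± 0.07, adjusted p = 1.45e-49). Cartpt, the precursor of the CART neuropeptides, stood at 20.8 ± 2.2 against 10.3 ± 0.8 (1.01 ± 0.04, adjusted p = 1.18e-64). None of these overlapped between the sets. Mean Nqo1 and Acsm4 were 15.3 and 3.79 in distal neurons but 2.55 and 0.405 in proximal ones. The proximal means lay below the 4.61 and 1.02 of the other class II neurons, a difference that was not tested. Mean Calb2 was likewise 8.64 in distal, 2.89 in proximal and 3.45 in other class II neurons. In the other direction Cidea, a lipid-droplet protein gene, measured 0.415, 0.241, 0.130 and 0.386 against 1.69, 1.42, 1.33 and 1.79, a change of -2.35 ± 0.13 (adjusted p = 1.77e-44). Cd36, which encodes a fatty acid and scavenger receptor, had no UMI among the 2742597 UMIs of these neurons and 0.741 ± 0.133 per 10000 in the others, at least 67.7-fold lower against a floor of 3 counts over the whole set (adjusted p = 2.65e-45).

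In all, 456 of 11467 genes passed, or 3.98%, with 224 higher (1.95%) and 232 lower (2.02%). The other genes of largest change in the higher direction were Socs2, a cytokine-signalling suppressor (1.52), Ptn, the growth factor pleiotrophin (0.98), Calb2, the calcium buffer calretinin (0.98), Tenm2, a teneurin adhesion protein (0.92), Selenom (0.83), 2810001G20Rik (0.69) and Acbd6 (0.67). In the lower direction they were the transcription factor genes Tshz1 (-2.06), Nfib (-1.42) and Nfix (-0.80), together with Pdlim1 (-2.05), Ifi27 (-1.65), Septin3 (-1.02), the centrosomal gene Cep250 (-0.89), the synaptic scaffold gene Dlg2 (-0.72) and Lrrc3b (-0.71). By list, 3 of 12 zone and subset markers were higher and 8 lower, with a median of -0.69 beside -0.005 over all genes tested. Several of these markers name the deposited clusters of the same neurons, so they are no independent evidence of direction. Cd55 (1.82 against 1.89) did not pass. Of 21 axon guidance and adhesion genes, 9 were higher and 4 lower (median 0.28). Tenm2, Tenm4, Pcdh17, Robo2 and Kirrel3 were among the higher, and Kirrel2, Epha5, Sema7a and Pcdh10 were the lower ones. Olfactory transduction genes moved little: 1 of 13 tested was higher, Gnal, the G protein subunit coupled to receptors (0.16 ± 0.04), and 2 were lower, the phosphodiesterase genes Pde1c (-0.33) and Pde4a (-0.17), with a list median of -0.05. Among 12 graded and activity-linked genes, 2 were higher and 4 lower (median -0.12). S100a5, a calcium-binding protein gene whose level follows neuronal activity, was 156, 135, 184 and 184 against 249, 213, 256 and 247 (-0.56 ± 0.03, adjusted p = 1.02e-38). Of 15 genes of receptor choice and trafficking only Ddit3 was higher and none was lower (median -0.0006). Of 9 immature neuron genes, 3 were higher, namely Gap43, Stmn2 and Crmp1 (median 0.21). Gap43 stayed low in both sets, at 0.357 ± 0.111 and 0.163 ± 0.031, against 32.3 in the immature neurons of type iOSN1. The count of 456 fell to 276 without mouse 4, and to 160 with neurons thinned to 5000 UMIs. Thinning also left out every neuron with fewer UMIs, so that 101, 40, 66 and 29 neurons of these receptors remained in mice 1 to 4, of 173, 128, 103 and 172, and depth and neuron number changed together.

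Since side differed between the sets, the comparison was repeated within ventral clusters. There 201 of 11154 genes passed, or 1.8%, with 82 higher (0.735%) and 119 lower (1.07%). Cartpt (15.8 against 6.80, 1.18 ± 0.06), Tenm2 (2.94 against 1.38, 1.07 ± 0.095) and Nqo1 (1.42 against 0.492, 1.46 ± 0.14) led the genes that were higher, followed by Acbd6, Pcdh8, Zfand2a, Calb2, Stbd1, Ptn and Robo2. Cidea (0.322 against 1.83, -2.45 ± 0.17) led the lower ones, followed by Tuba4a, Tshz1, Pcdh10, Pdlim1, Ifi27, Pcp4l1, Dlg2, Cadps2 and Lrrc3b. Each of these changed the same way in 4 of 4 mice. Some differences came from 1 gene group within ventral clusters. Nqo1 and Calb2 were 2.89 and 8.06 in distal neurons, 0.248 and 2.48 in proximal ones and 0.492 and 2.74 in the others. Pcdh8 and Acbd6 were 1.51 and 2.88 in proximal neurons, 0.514 and 1.17 in distal ones and 0.557 and 1.12 in the others. Pdlim1 and Pcp4l1 were lower in both groups. Side was held fixed by cluster label only. Cd36 was again without a UMI, at least 35.0-fold lower against the same floor. Zone and subset markers were higher for 4 and lower for 5 of 12, and Cd55 was now among the higher (3.29 against 2.11), with a list median of -0.31 beside -0.02 over all genes. Guidance and adhesion genes were higher for 7 and lower for 5 of 21 (median 0.37). Transduction genes were lower for 3 of 13 (median -0.11), and graded genes were higher for 2 and lower for 5 of 11 (median -0.52). None of 15 choice and trafficking genes passed (median 0.02), and of 9 immature neuron genes only Crmp1 did (median 0.23). Calls for Nqo1, Ptn and Robo2 were lost with thinning, in which 44, 26, 27 and 16 neurons of these receptors remained. Their changes were then 0.635, 0.327 and 0.503. Those for Calb2, Ifi27 and Cadps2 were lost with DESeq2, where the changes were 0.75, -1.64 and -0.78. The call for Cadps2 was also lost without mouse 4 (-0.59, adjusted p = 0.121). The count of 201 was 94 without mouse 4, 120 without mouse 3 and 80 in thinned neurons.

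Neurons of proximal and distal receptors were then compared with each other, asking whether the 2 gene groups mark neurons of different profiles. Mean Cd55, a complement-regulating surface protein gene, was higher in proximal neurons, and distal neurons had more of the dorsal genes and Tuba4a, an alpha-tubulin gene. Cd55 measured 4.91, 5.43, 5.69 and 4.75 in proximal neurons of mice 1 to 4, against 0.074, 0.504, 0.212 and 0.391 in distal neurons, a change of 4.27 ± 0.17 (adjusted p = 2.47e-93). Tuba4a measured 0, 0.049, 0 and 0.084 against 1.40, 0.83, 0.952 and 1.15 (-4.88 ± 0.44, adjusted p = 1.09e-23). Nqo1 was 2.55 ± 0.86 against 15.3 ± 2.3 (-2.63 ± 0.10, adjusted p = 6.4e-94). These ranges over mice did not overlap. The proximal populations differed in Cd55, here described and not tested: summed over mice it was 18.4, 12.3, 11.8 and 13.3 in neurons of Olfr835, Olfr855, Olfr867 and Olfr870, but 1.18 in Olfr873, with no UMI in the 21, 19 and 12 neurons of Olfr868, Olfr843 and Olfr869. In all, 216 of 4962 genes passed, or 4.35%, with 117 higher (2.36%) and 99 lower (2%) in proximal neurons. Other genes higher in proximal neurons were Gm49542 (3.80), Tppp3 (3.25), Zpld2 (2.93), the transcription factor gene Olig1 (2.25), Rasl11a (1.79), the cytokine receptor gene Lifr (1.74), the protocadherin gene Pcdh8 (1.72), Rps4l (1.66) and the adhesion gene Ncam2 (1.40). Those higher in distal neurons were Acsm4 (-3.26), Adam28 (-2.97), Cadps2 (-2.32), Pcdh7 (-1.60), Socs2 (-1.59), Calb2 (-1.58), Mslnl (-1.49) and Ppa1 (-1.30).

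By list, 5 of 9 zone and subset markers were higher in proximal neurons and 4 lower. The higher ones were Cd55, Ncam2 and the ventral genes Nfix, Nfib and Nrp2, and the list median was 1.08 beside -0.0005 over all genes. Guidance and adhesion genes were higher for 3 and lower for 4 of 17 (median -0.10). Nrp1, a semaphorin receptor gene, was near absent in proximal neurons, with no UMI in 3 of 4 mice, and stood at 0.487 in distal ones (-4.16 ± 0.60, adjusted p = 1.9e-09). Of 13 transduction genes, 6 were lower in proximal neurons: Gnal, Cnga2, Cnga4, Pde1c, Pde4a and Stoml3 (median -0.37). Gnal, Cnga4 and Pde1c were lower in 3 of 4 mice, the others in 4 of 4. Stoml3, a stomatin-family gene, measured 78.0, 56.8, 66.3 and 63.0 against 97.9, 94.2, 79.4 and 87.8 (-0.48 ± 0.07). The graded genes were higher for 1, Tppp3, and lower for 4 of 8 (median -0.45). Of 13 choice and trafficking genes, 3 were higher, namely Ebf1, Emx2 and the receptor transport gene Rtp1, and none of 6 immature neuron genes passed (medians 0.14 and -0.009). The count of 216 was 122 without mouse 4, 54 in thinned neurons and 52 with DESeq2. Within ventral clusters alone, a comparison chosen after the data were seen, 77 of 3177 genes passed, or 2.42%, with 40 higher (1.26%) and 37 lower (1.16%), and 67 of the 77 had passed before. Cd55 (3.86 ± 0.22), Tppp3 (2.62 ± 0.32), Nqo1 (-3.38 ± 0.29), Adam28 (-2.99 ± 0.37) and Calb2 (-1.70 ± 0.15) were among them, and Acsm4 had no UMI in proximal neurons, at least 23.4-fold lower. Ncam2 (0.01), Lifr (0.88) and Rps4l (0.94) no longer passed. The lists gave 1 higher and 3 lower of 9 zone markers, 2 and 2 of 15 guidance genes, 0 and 4 of 12 transduction genes, 2 and 3 of 8 graded genes, 1 and 0 of 11 choice genes and 0 of 4 immature genes, with medians of 0.01, -0.25, -0.29, -0.34, 0.15 and 0.16 beside 0.01 over all genes.

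Of the single populations, 7 had at least 3 neurons in each mouse, 145 neurons in all: the proximal Olfr855 and Olfr870 and the distal Olfr878, Olfr969, Olfr972, Olfr976 and Olfr984. An edgeR test over all population terms found 90 of 496 genes unequal among them, or 18.1%. Only these 496 genes passed the expression filter on such small sums, so the share cannot be set beside those of the comparisons above. Without the filter 141 of 13276 genes passed. Calb2 gave the largest F value. It measured 60.7, 43.2, 40.6 and 43.4 in Olfr972 neurons of mice 1 to 4, and its mean was 1.49 or less in the other 6 populations. Pcp4l1 was highest in Olfr976 neurons (36.8 ± 5.7), next in Olfr984 (9.73 ± 0.88), and 3.66 or less elsewhere. Cd55 was present in Olfr855 (12.6 ± 2.7) and Olfr870 (13.6 ± 5.0) and had no UMI in the 5 distal populations. S100a5 had a wide range in UMIs per 10000, from 291 ± 47 in Olfr976 and 185 ± 53 in Olfr855 through 143 ± 26 in Olfr984 to 2.08 ± 1.35 in Olfr972. In Olfr969, Olfr870 and Olfr878 it lay between, at 50.1, 45.6 and 38.3. Ptn and Mslnl had no UMI in Olfr855 and Olfr870 and reached 11.7 ± 1.9 and 7.65 ± 2.65 in Olfr972. Olfr855 and Olfr870 lie mostly in the ventral Cd55+ cluster and do not stand for all proximal receptors. Over all proximal neurons Mslnl stood at 2.13 ± 0.40. Nqo1 was highest in Olfr878 (22.8 ± 15.6) and Olfr969 (21.4 ± 5.6), and had no UMI in Olfr984. Olfr878 neurons differed between mice, with no UMI of Nqo1 in mouse 2, whose 3 clustered neurons were all ventral, and 27.9 to 35.2 in mice 1, 3 and 4, where 3, 6 and 2 were dorsal and 0, 1 and 1 ventral. Faim2, an apoptosis-inhibitory membrane protein gene, was 0.77 ± 0.11 in Olfr855 and 1.05 ± 0.92 in Olfr870, against at least 8.51 in each of the 5 distal populations tested. Kirrel2, an adhesion gene of axon sorting, was 9.09 ± 3.10 in Olfr976 and 8.86 ± 2.68 in Olfr984, and had no UMI in Olfr972. Stoml3 ran from 28.5 ± 10.7 in Olfr855 to 146 ± 15 in Olfr972.

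**Figure D4:**
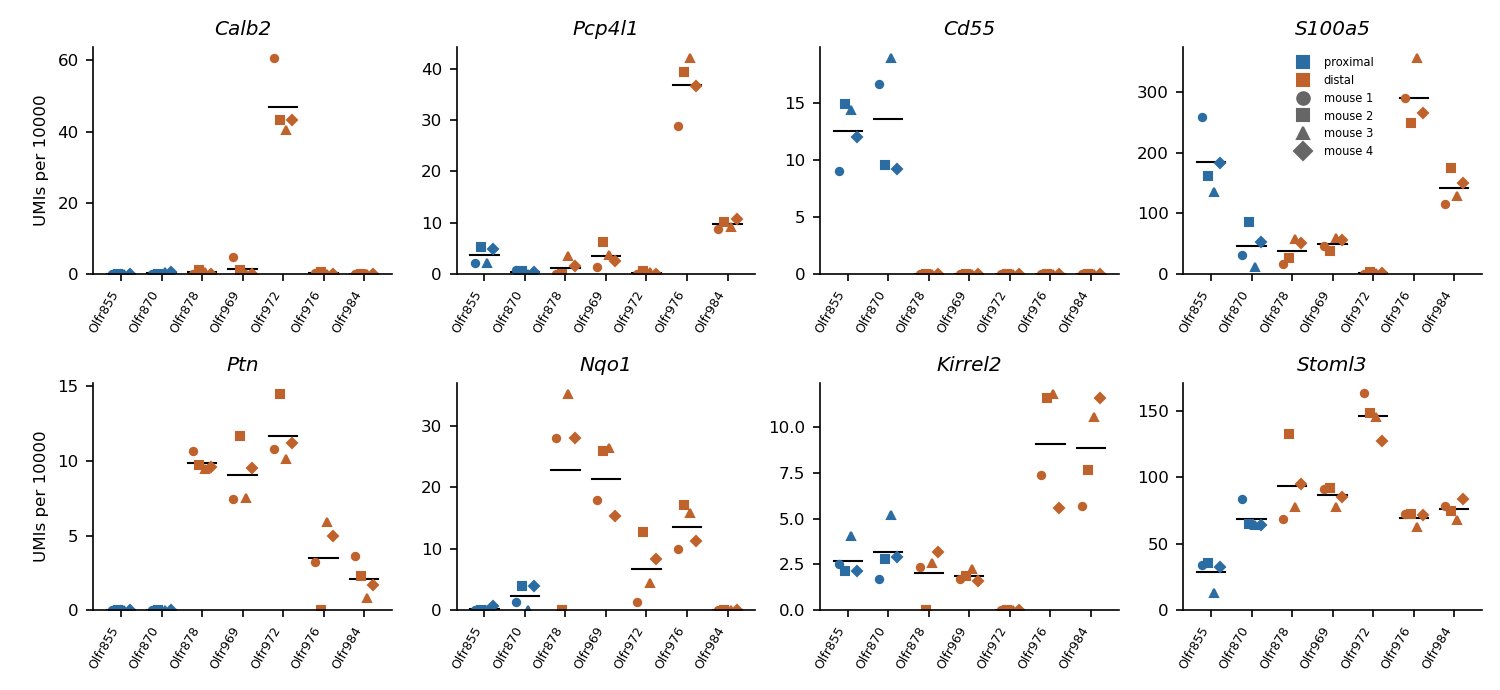
UMIs per 10000 of 8 genes in the 7 populations with at least 3 neurons in every mouse; points are mice (shape) and bars the mean, in blue for proximal and orange for distal receptors. Calb2 was high in Olfr972 alone (47.0), Cd55 in Olfr855 and Olfr870 (12.6 and 13.6), and S100a5 ran from 291 in Olfr976 to 2.08 in Olfr972.

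By list, 6 of 6 zone and subset markers tested, 4 of 4 graded genes, 7 of 11 transduction genes, 2 of 3 guidance genes, 1 of 7 choice and trafficking genes (Ebf1) and 0 of 1 immature neuron genes were unequal among the 7 populations. Of the transduction genes, Gnal was 43.2 in Olfr972 against 23.0 in Olfr984, and Cnga2, a channel subunit gene, 11 in Olfr972 against 3.6 in Olfr855. Omp, the marker of mature OSNs, was 58.0 to 78.2 in the 7 populations (adjusted p = 0.317). Each population sum of this test rested on 3 to 10 neurons, with 8237 to 65699 UMIs. In thinned neurons 26 genes passed, with sums of 1 to 8 neurons. There Olfr878 and Olfr976 had no neuron left in mouse 2, and only Olfr855 and Olfr972 had any in mouse 4.

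Distances between population centroids were computed in each mouse on 15 principal components of the non-receptor genes, as the study related such distances to receptor sequence. Populations with at least 3 neurons in the mouse entered, and 45, 16, 6 and 26 pairs in mice 1 to 4 were at least 60% identical. The study asked for more cells per population, integrated the mice and scored amino acid replacements. Its values and those given here are therefore not directly comparable. Pairs at least 60% identical lay 11 ± 1.2 units apart and the other pairs 11.8 ± 1.2, a difference of -0.84 ± 0.39 in 4 of 4 mice (exact sign-flip permutation p = 0.13, the smallest possible). No pair across the groups reached 60% identity, so identity and gene group cannot be told apart in that comparison. Against less identical pairs of the same group, the difference was -0.22 ± 0.46, negative in 2 of 4 mice (exact p = 0.5). Pairs within a group lay closer than pairs across groups, with a difference of -1.20 ± 0.44 in 4 of 4 mice (exact p = 0.13). As the groups also differed in side, at 12.0% and 64.3% dorsal, side and gene group cannot be told apart here. Across pairs, Spearman's rho of identity and distance was -0.184, -0.0417, 0.119 and -0.0215 in the 4 mice, over pairs that share populations. Of the 21 pairs measured in every mouse, Olfr878 and Olfr969 were nearest (8.68 ± 1.20, 56.7% identical), followed by Olfr855 and Olfr870 (8.91 ± 0.38, 57.4%). The farthest were Olfr855 and Olfr972 (16.3 ± 0.9, 43.3%). Olfr969 and Olfr972, the most identical of the 21, lay 10.4 ± 2.7 apart.

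Receptor transcripts appear as OSNs mature, and detection was followed in the immature types. The deposited types matched their markers: Gap43 and Omp stood at 32.3 and 5.78 UMIs per 10000 in iOSN1, 8.75 and 47.4 in iOSN2 and, in mature neurons of the chromosome 9 receptors, 0.353 and 69.0. A UMI of any of the 110 genes was found in 13.8%, 13.5%, 6.79% and 11% of iOSN1 cells in mice 1 to 4, a mean of 11.3% ± 3.3, and in 7.83% ± 0.46 of iOSN2 and 7.41% ± 0.92 of mature OSNs. The share was 5.96% ± 2.79 in Mv2 microvillar cells and 5.97% ± 3.14 in HBC2 horizontal basal cells, types that should lack receptors and stand here for background. Median depths were 6831 UMIs in iOSN1, 7302 in iOSN2, 4861 in mature OSNs, 5081 in Mv2 and 7187 in HBC2. iOSN1 exceeded Mv2 in 3 of 4 mice (exact sign-flip permutation p = 0.25). Thinning every cell to 5000 UMIs, which left out 184 iOSN1, 178 iOSN2 and 863 Mv2 cells, gave 10.5% ± 2.6, 8.09% ± 0.59 and 4.24% ± 3.01. With at least 2 UMIs of a gene required, iOSN1 had 5.15% ± 1.63, iOSN2 6.00% ± 0.55, mature OSNs 5.92% ± 0.46, Mv2 0.52% ± 0.52 and HBC2 0.22% ± 0.44. By that measure iOSN1 exceeded Mv2 in 4 of 4 mice (exact p = 0.13, the smallest possible).

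A chromosome 9 receptor was the most abundant receptor of 44 of the 805 iOSN1 cells with any receptor (5.47%) and of 56 of 992 such iOSN2 cells (5.65%). These shares were near the 5.87% of mature neurons. The 44 iOSN1 cells named 33 of the genes, with a median of 21 UMIs, and the 56 iOSN2 cells named 37, with a median of 43.5. Another receptor was present as well in 82 of the 101 iOSN1 cells with one of these transcripts and in 40 of the 79 such iOSN2 cells, a difference that was not tested. In 17 iOSN1 and 3 iOSN2 cells, 2 or more of the 110 genes were detected together.

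Second receptors detected in the same cell were counted as partners. A pair within the series was counted once from each of its genes, so the 94 partners given next come from 47 detections. In mature OSNs, 94 of 492 partners of these receptors belonged to the series, or 19.1%, beside a share of 5.65% ± 0.47 among all receptor detections, and the partner share was 17.6%, 25.7%, 13.8% and 21.3% in mice 1 to 4. In iOSN1 cells it was 62 of 469, or 13.2%, beside 6.62% ± 2.36, and the shares of 13.4%, 16.6%, 3.03% and 13.8% in mice 1 to 4 stood beside 7.09%, 8.33%, 3.17% and 7.87%, so that mouse 3 showed no excess. In iOSN2 cells 6 of 69 partners, or 8.70%, were of the series, with none in mice 2 and 3, beside 5.51% ± 0.85. Of the 30 pairs detected in mature neurons, 13 were neighbouring genes, and these made up 30 of the 47 detections. Among the 5995 possible pairs of the series, 108 are neighbours. The most frequent were Olfr983 with Olfr984 in 5 neurons (9607 bp apart), Olfr915 with Olfr916 and Olfr979 with Olfr980 in 4 each, and Olfr917 with Olfr918 in 3. In 5 neurons both genes exceeded the expression limit of 8.28 UMIs per 10000 that the receptor calls imply, and 3 of these were neighbours. One neuron held 124 UMIs of Olfr981 and 89 of Olfr983, which are not immediate neighbours, and another held 50 of Olfr982 and 46 of Olfr983, which are. Reads shared by neighbouring transcripts and transcripts of both genes were not told apart in these counts, and Olfr979 and Olfr980 are 92.6% identical.

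Of the 110 genes, 2 stood out in cells that are not neurons, and both are described because of these values. Olfr920 had 5 mature neurons of its own, in which it reached 148 UMIs, and was found in only 2 of 10514 other mature neurons, in 3 of 866 iOSN1 cells (0.346%, up to 34 UMIs per cell), in 0 of 1006 iOSN2 cells (up to 0.38% by the 95% Wilson interval) and in 0 of 284 precursor cells of type INP. Yet 57 of 1768 Mv2 cells carried it (3.22%), in 2.73%, 2.49%, 6.25% and 1.84% of those of mice 1 to 4, with at most 2 UMIs per cell. It was also found in 25 of 544 HBC2 cells (4.6%), in 3.56%, 3.28%, 8.82% and 2.46% of those of mice 1 to 4, in 5 of 210 HBC1 cells (2.38%, and 1.1% without mouse 2, which held 3 of the 5), 6 of 336 sustentacular cells and 4 of 124 Mv1 cells. These shares lie above those of other mature neurons in the same droplet runs, at 0.019%. Vwa5a, the gene upstream of Olfr920 on the same strand, ends 8961 bp before it, and Vwa5a was detected in 14.0% of the Mv2 cells with Olfr920 and 16.7% of those without. By type, Vwa5a was detected in 17.3% of HBC2, 16.6% of Mv2, 11% of sustentacular, 10% of HBC1, 9.41% of globose basal (GBC) and 2.42% of Mv1 cells, where Olfr920 was also seen (in 1 of 202 GBC cells), and in 0.0475% of mature OSNs, 0.693% of iOSN1, 0.0994% of iOSN2 and no INP cells. Whether reads of a neighbouring transcript, free RNA or expression gave these counts was not tested. Olfr984 was found in 30 of 1768 Mv2 cells (1.70%), in 3.15%, 1.49%, 1.75% and 0.408% of those of mice 1 to 4. It was found in 8 of 284 INP cells (2.82%), of which 4 were from mouse 3, and in 4 of 226 (1.77%) without that mouse. It was seen in none of 544 HBC2, 336 sustentacular or 210 HBC1 cells, and in 5 of 10493 other mature neurons (0.0477%), 2 of them among the 344 with more than 1 receptor above the limit.

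**Figure D5:**
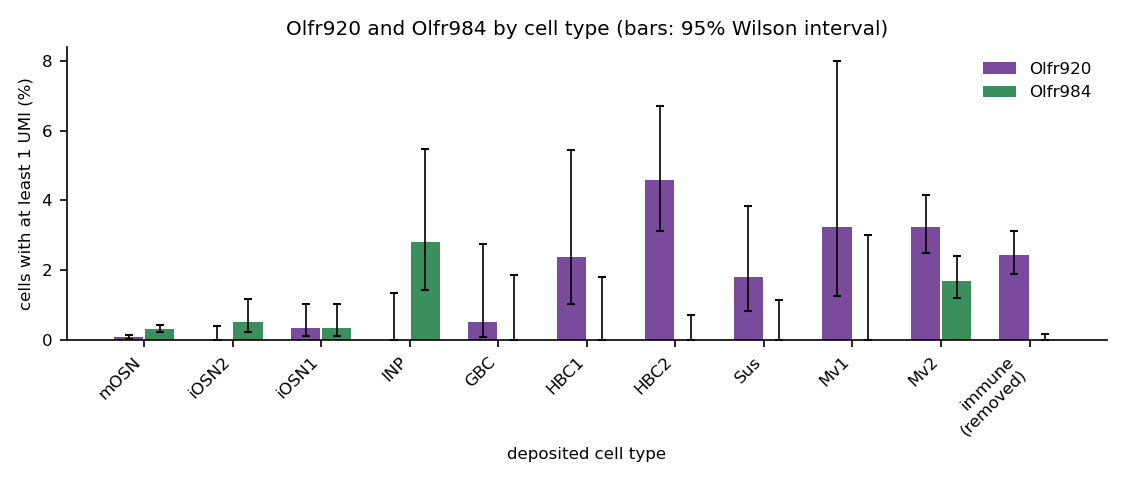
Percent of cells with at least 1 UMI of Olfr920 (purple) and Olfr984 (green) in each deposited cell type and in the removed immune clusters; error bars are 95% Wilson intervals, which cover counting error only. Olfr920 reached 4.6% in HBC2 and 3.22% in Mv2 cells, and Olfr984 was seen in Mv2 (1.70%) and INP (2.82%) but not in HBC2 cells.

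These 2 genes accounted for most of the background seen above. Without them, 19 of 1768 Mv2 cells held a UMI of the series, never more than 1 per gene, and the mouse means were 1.10% ± 0.37 in Mv2, 1.97% ± 0.77 in HBC2, 10.9% ± 3.0 in iOSN1 and 7.42% ± 0.55 in iOSN2. No test is given, since both genes were left out for being high in Mv2 or HBC2 cells. Single cells held a receptor at the level of a neuron, for example 1 HBC2 cell with 125 UMIs of Olfr867 and 1 INP cell with 45 UMIs of Olfr843.

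The libraries held 23157467 to 32382702 UMIs. Neurons of these receptors were slightly shallower than those of other class II receptors, with median UMIs of 5321, 4058, 5844 and 3651 in mice 1 to 4 against 5581, 4356, 6641 and 3989. Their median share of mitochondrial UMIs was lower in 4 of 4 mice, at 0.768%, 1.29%, 1.12% and 1.11% against 0.992%, 1.44%, 1.16% and 1.31%, and its part in the expression differences was not tested. Whether depth had a part in the expression differences was not tested beyond the thinned fits, which also rest on fewer neurons. Side and level were recomputed in neurons with at least 5000 UMIs only. There 43.7% of neurons of these receptors and 14.6% of other class II neurons were dorsal, and 4.27% of proximal against 68.0% of distal neurons. Levels were 89.5 against 77.2 UMIs per 10000, and 119 for proximal against 72.3 for distal receptors. Each difference had the same sign in 4 of 4 mice. Across libraries, 54 barcodes occurred in more than 1 mouse, and none of them belonged to a neuron of these receptors. Markers of precursor and non-neuronal cell types were near 0 in these neurons: the basal cell gene Krt5, the microvillar gene Ascl3, the sustentacular gene Cyp2g1 and the immune gene Tyrobp stood at or below 0.0411 UMIs per 10000, the haemoglobin gene Hbb-bs was the highest at 0.336, and Tex15, Kit, Trp63, Cftr and Chat had no UMI.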

How the data were processed

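Single cells of the main olfactory epithelium of 4 mice were profiled with 10x Genomics 3′ chemistry. Per the labels and the study's methods, the authors aligned reads with Cell Ranger 6.0.1 to GRCm38, using Ensembl 102 gene models with redrawn receptor 3′ ends, and deposited raw UMI counts per gene and barcode. The authors also deposited for each cell its percentage of mitochondrial UMIs, the ratio of UMIs to detected genes, its type, its cluster and its receptor. They had removed immune, blood and high-mitochondrial clusters, and then cells above 10% mitochondrial UMIs or below 1000 genes. Neurons with more than 1 receptor above the limit, or none, carry no receptor identity. No doublet caller was run here, and neurons with exactly 1 detected receptor were used as an alternative. Types and clusters are the deposited ones, and class I was taken as the receptor genes of chromosome 7 between 102.4 and 105.4 Mb.

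Counts were summed per mouse and neuron set, receptor genes were left out, and edgeR 4.0.16 (R 4.3.3) was run with TMM factors, its expression filter, mouse as a block and a Benjamini-Hochberg threshold of 0.05. Standard errors are the log2 change divided by the root of F. Single values were compared with an exact two-sided sign-flip permutation test over mice, whose smallest p is 0.13 for 4 mice and 0.25 for 3. The sign-flip p-values rest on the spread between these 4 mice. The edgeR p-values also draw on a spread estimated across many genes, so they do not measure a single gene's spread between mice. Within ventral clusters Ifi27 stood at 0.714 ± 0.604 against 1.72 ± 0.49. Its adjusted p was 2.17e-16 with edgeR and 0.296 with DESeq2. The sums of both sets come from the same animals, which is why the block is in the design. Deviations of same-mouse sums correlated at 0.07 to 0.28 for the chromosome 9 receptors and the other class II receptors, 0.05 to 0.21 within ventral clusters and 0.02 to 0.26 for the proximal and distal sets. For the latter, mouse 2 stood at 0.04, below its highest correlation with another mouse, 0.11. In every other case the same-mouse value was the higher. The edgeR steps were tested on simulated data before use. Coordinates are from GENCODE M21 (GRCm38), and protein identities are global alignments made with Biopython 1.88. Python 3.11.15, numpy 2.4.6, pandas 2.3.3, scipy 1.17.1, DESeq2 1.42.0 and matplotlib 3.10.9 were also used.

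The receptor genes and gene lists were chosen with earlier results of these data known. Named receptors were the 10 with most neurons, the 10 lowest and 10 highest in level among those with at least 10 neurons, the pairs most often detected together, and any first in a count. Named other genes were the 10 largest changes in each direction among those past the threshold, changed alike in 4 of 4 mice and at 1 UMI per 10000 or more in either set, the 10 largest F values among populations, and the listed genes. Wilson intervals are at 95% and cover counting error only. A value of 0 was set against a floor of 3 counts over the whole set.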

Additional observations from a re-analysis of the deposited data

Results flagged for a closer look

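In each group of 4 mice, the highest or lowest mouse was examined for a gap to the next that took up most of the group's range (Dixon's 95% criterion). Of 172 groups, 7 met it, and chance gives about 1 in 20. Olfr878 met it for both of its measures in mouse 3. It had 7 neurons there and 3 in each other mouse, and its receptor level was 136 UMIs per 10000, beside a median of 97.7 in the others. In mouse 1, 6.6% of mature OSNs had at least 2 UMIs of a chromosome 9 receptor, beside a median of 5.66% elsewhere. In neurons of the other class II receptors, mouse 2 was lowest for Pdlim1, at 1.57 UMIs per 10000 beside a median of 1.87, and for Dlg2 within ventral clusters, at 4.1 beside 5.0. Mouse 3 was highest for Cep250 in neurons of the chromosome 9 receptors, at 0.846 beside 0.572, and for Tppp3 in proximal neurons, at 2.81 beside 1.35.

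Barcodes that the authors had removed entered no comparison. Among these, Olfr920 had 62 UMIs in immune cell clusters and 13 in clusters of high mitochondrial share. Olfr905, which had no assigned neuron, had 28 UMIs in barcodes typed as mature OSNs before filtering, 15 in a barcode of mouse 4 with 766 detected genes and 13 in one of mouse 1 with 692, both under the limit of 1000 genes.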

How the results depend on the processing

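Of 780 recomputed values none reversed. Of those for the main results 54 stayed within their limits and 22 moved. For side, level, detection in immature cells and centroid distance, staying meant only an unchanged sign. The sign-flip p cannot fall below 0.13 for 4 mice or 0.25 for 3, so no call could be lost. The detection share without Olfr920 and Olfr984 was counted as staying without a check. Of 704 others, 694 kept their call. These 704 were for single genes and, by sign only, for side and level of proximal against distal receptors. The main counts of 456 (chromosome 9 against other class II receptors), 201 (ventral clusters alone), 216 (proximal against distal) and 90 (among populations) moved as follows. DESeq2 gave 187, 88 and 52 for the first 3. Thinning to 5000 UMIs, which leaves out shallower neurons, gave 160, 80, 54 and 26, and neurons with exactly 1 detected receptor gave 244, 90 and 124 for the first 3. At most 3 neurons per population and mouse gave 285 for the first. Proximal against distal within ventral clusters, chosen after the data were seen, gave 77. Without an expression filter 141 of 13276 genes passed among populations, of which 51 were among the 90. Leaving out 1 mouse gave 276 to 382, 94 to 149, 122 to 177 and 71 to 81, the lowest of the first 3 without mouse 4, and 120 in ventral clusters without mouse 3. The share of neurons was 6.42% for neurons with exactly 1 detected receptor and 4.99% for those with at least 5000 UMIs. The cause of these moves was not tested. The calls of single genes were lost in 10 cases. Within ventral clusters these were Calb2, Ifi27 and Cadps2 with DESeq2 (adjusted p = 0.441, 0.296 and 0.0831), Cadps2 without mouse 4 (change -0.59, 0.121), and Nqo1, Ptn and Robo2 in thinned neurons (0.603, 0.503 and 0.407). For proximal against distal, they were Lifr, Rps4l and Ncam2 in ventral clusters (0.0879, 0.106 and 0.996). With at least 5 neurons per population only 2 mice held similar pairs, at most 5 pairs in a mouse. Their distance difference was -2.28 ± 2.88 (SD over these 2 mice).

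Without the mouse as replicate block, the counts were 176, 75, 110 and 76, against 456, 201, 216 and 90 with it.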
